A study of Mus musculus with 14 samples.

Results

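Neurotransmitter receptors are the proteins through which a neuron or a muscle fibre responds to glutamate, GABA, glycine or acetylcholine. The genes described here are the 59 mouse genes, of 23109 loci in the RNA-seq tables, that encode subunits of 9 receptor families. They were taken by symbol: *Gria*, *Grin*, *Grik*, *Grm*, *Glra*, *Gabra*, *Gabrb*, *Gabrg*, *Chrna*, *Chrnb* or *Chrm* followed by a number, and *Glrb*. They comprise 4 AMPA, 7 NMDA, 5 kainate and 8 metabotropic glutamate receptor genes, 5 glycine and 12 GABA-A receptor genes, 2 muscle and 11 neuronal nicotinic subunits, and 5 muscarinic receptors. The study asked how TAF9B, a TBP-associated factor, bears on neuronal gene expression. Poly-A RNA was sequenced from C57BL/6 mouse ES cells, from embryoid bodies (EBs) made from them, and from newborn tissue, as 11 libraries with 1 library per condition. The wild type (WT) cells were the JM8 line and the knock-out (KO) cells the *Taf9b* -/- clone BG10, in which a *LacZ-Neo* cassette stands in place of the coding exons. Each is a single line, and both were kept as ES cells on inactivated mouse embryonic fibroblasts. EBs of both were treated with retinoic acid and the smoothened agonist SAG to form motor neurons, and were sampled at days 2, 4 and 6. The tissues were newborn lumbar spinal column of WT and *Taf9b* KO littermates, which holds vertebrae, muscle and ganglia beside the cord, and newborn WT spinal cord dissected alone. TAF9B and RNA polymerase II (POL2) were mapped by ChIP-seq in WT motor neuron EBs of HBG3, a further line that carries GFP driven by the *Mnx1* promoter, after 8 days of differentiation, whereas the last RNA sample is of day 6. The label gives the cell lines JM8 and BG10 for the tissues too, and whether animals were pooled is not given in the sources used here.

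The families differ in how they work. AMPA, NMDA, kainate, GABA-A, glycine and nicotinic receptors are channels assembled from several subunits around a pore, so that the set of subunit genes a cell expresses fixes the channels it can build. Metabotropic glutamate and muscarinic receptors have no pore and signal through G proteins. Glutamate excites, while GABA and glycine inhibit mature spinal neurons. Acetylcholine released by motor neurons acts on the muscle nicotinic receptor at the neuromuscular junction.

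The deleted gene was examined first. *Taf9b* was at 0.537 FPKM in the WT ES library and at 3.06 FPKM in the ES library labelled KO. In the EB pairs it was likewise higher under the KO label, at 4.08 against 0.516 FPKM on day 2, 4.27 against 1.96 FPKM on day 4 and 4.01 against 1.37 FPKM on day 6. All 4 cell culture pairs thus go against the label, and these libraries are called the libraries labelled KO throughout. Whether the libraries of a pair were exchanged was not tested, and an exchange would turn every KO-to-WT ratio of that pair given here. In spinal column the order was that of the label, 6.65 FPKM in WT and 3.31 FPKM in KO. Reads from parts of the transcript outside the coding exons are not separated in the tables. Per the methods, the deletion itself was checked in the KO cells by sequencing of DNA, which does not bear on the labels of the libraries. FPKM is a fragment count scaled to transcript length and to the total of mapped fragments, and depth is unknown because no counts are used. With 1 library per condition no value has an error and no test within a comparison was possible: a gene was called higher or lower when it was above 1 FPKM in at least 1 of both libraries and differed by more than 2-fold, and the first count of receptor genes in each comparison stands beside the share of all loci that met the same criteria.

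The ChIP data show which of these genes had a TAF9B peak at an annotated start site, alternative starts included, in motor neuron EBs. A TAF9B peak had its midpoint within 500 bp of an annotated start site for 12 of the 59 genes, which is 20.3%, against 20.8% of all 21305 genes that could be placed. They included *Gria4*, *Grin1*, *Grin2b*, *Grik2*, *Grik4*, *Glra3*, *Gabra2*, *Gabra5*, *Chrnb1*, *Chrna4* and *Chrnb2*. A POL2 peak lay at a start site of 6 genes, *Gria2*, *Gria4*, *Grik5*, *Glra1*, *Chrnb1* and *Chrnb2*, or 10.2%, against 33.7% of all genes. With peaks above the median score alone, 4 of the 59 held TAF9B at the start, against 13.4% of all genes, and 0 held POL2, against 19.2%. The POL2 share also depended on the mRNA level: it was 20.0% of the 15 receptor genes above 1 FPKM in WT EBs at day 6, against 56.3% of all such genes, and 6.82% of the other 44, against 4.77%. *Gria4*, *Chrnb1* and *Chrnb2* had both marks.

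The peak with the highest score at a start site was that of *Chrnb1*, with a MACS score of 159.6, followed by *Gria4* with 124, *Gabra5* with 121 and *Grik2* with 114. The other 8 scores ran from 50.2 for *Chrna4* to 78.4 for *Chrnb2*, all below the median of 83.3 over the 10415 TAF9B peaks. Just outside the window lay peaks 562 bp from the start of *Glra1*, 832 bp from *Grm3* and 862 bp from *Grm8*. *Glra1*, the glycine receptor subunit of the mature spinal cord, thus had POL2 251 bp upstream of its start and a TAF9B peak that overlapped it.

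The sequences of 4 TAF9B peaks upstream of a start are shown because they belong to genes at very different levels: *Chrna4* and *Grik4* were above 1 FPKM in WT EBs at day 6, *Grin2b* and *Gabra2* far below. Coordinates are of build mm9 (NCBIM37), the letters run 5′ to 3′ on the strand of the gene, which is the minus strand in each case, and only bases outside annotated exons were kept. The *Chrna4* peak lies inside the gene, whose 5′ end is at 180778251 on chromosome 2, and upstream of an alternative start. Capitals mark the GC box CCGCCC or its complement GGGCGG, the element bound by SP1 family factors.
Grin2b, chr6:136123660-136123795: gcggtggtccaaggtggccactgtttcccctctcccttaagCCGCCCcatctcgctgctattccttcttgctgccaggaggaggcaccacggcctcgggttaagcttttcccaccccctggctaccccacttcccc
Grik4, chr9:42752890-42753073: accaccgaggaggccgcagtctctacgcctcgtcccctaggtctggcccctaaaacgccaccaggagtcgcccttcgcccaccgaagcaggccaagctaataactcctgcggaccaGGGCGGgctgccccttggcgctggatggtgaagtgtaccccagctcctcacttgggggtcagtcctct
Gabra2, chr5:71487471-71487647: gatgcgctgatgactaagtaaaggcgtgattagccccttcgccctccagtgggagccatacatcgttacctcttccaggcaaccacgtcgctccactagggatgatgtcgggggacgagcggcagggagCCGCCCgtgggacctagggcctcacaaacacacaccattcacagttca
Chrna4, chr2:180774164-180774302: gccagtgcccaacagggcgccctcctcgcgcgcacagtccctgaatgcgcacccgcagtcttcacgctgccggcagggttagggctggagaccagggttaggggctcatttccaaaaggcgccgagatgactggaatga
Of the 10 receptor genes whose TAF9B peak at the start had bases outside exons, 4 had a GC box there, among them *Grin2b*, *Grik4* and *Gabra2* but not *Chrna4*. The 4 stretches shown held 58.8% to 64.7% G and C. The median over the 1000 bp around the start was 57.1% for the 59 genes and 55.3% for all genes. In the 1000 bp centred on the start, a GC box on either strand was found in 62.7% of the 59 genes and 61.8% of all genes. Of all TAF9B peaks, 33.2% held one.

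A second element, RE1, is shown because it is known from many neuronal genes. It is bound by REST, a repressor that keeps such genes off in other cells, and its core was searched on both strands as CAGCACC, any 2 bases, then GGACAGC. Among the 59 genes it lay within 500 bp of the start of 2, *Grin1* and *Chrnb2*, 163 and 168 bp downstream in the 5′ UTR. Capitals mark both parts of the core.
Grin1, chr2:25174532-25174557: cgcttCAGCACCtcGGACAGCacccg
Chrnb2, chr3:89568374-89568399: ggcttCAGCACCacGGACAGCgctcc
This is 3.39% of the receptor genes and 0.0892% of all genes, 19 of 21305. The *Chrnb2* site lay inside its TAF9B peak, and the *Grin1* site outside that gene's peak. Of the 10402 TAF9B peaks on assembled chromosomes 17 held the core, or 0.163%. A match in these letters does not show binding.

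TAF9B peaks were also found away from start sites. Inside the gene and more than 500 bp from a start, 9 of the 59 genes held one, or 15.3%, against 9.78% of all genes. The receptor genes are long, with a median of 91.0 kb against 16.5 kb, and among genes at least as long as the median receptor gene 9 of 30 receptor genes held one, against 33.4% of all genes of that length. *Grik3* and *Grik4* each held 3 such peaks and *Grin2b* and *Chrna7* each 2. The highest score, 248, belonged to a peak inside *Gabra5*, 35.6 kb from its start.

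Genes with a peak at the start were found at high and at low mRNA levels. Of the 12 genes with TAF9B at the start, 4 were above 1 FPKM in WT EBs at day 6, namely *Chrna4* at 9.21, *Chrnb2* at 4.99, *Chrnb1* at 3.37 and *Grik4* at 1.33 FPKM. *Grin2b*, with a peak, was at 0.0165 FPKM, and *Glra3*, also with one, was listed at 0. Among genes at or below 1 FPKM, 8 of 44 receptor genes (18.2%) held TAF9B at the start, against 6.63% of all genes at or below 1 FPKM. Among those above it the shares were 4 of 15 (26.7%) and 31.8%. *Grm2*, the second highest receptor gene at day 6, had neither mark within 500 bp.

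**Figure D1:**
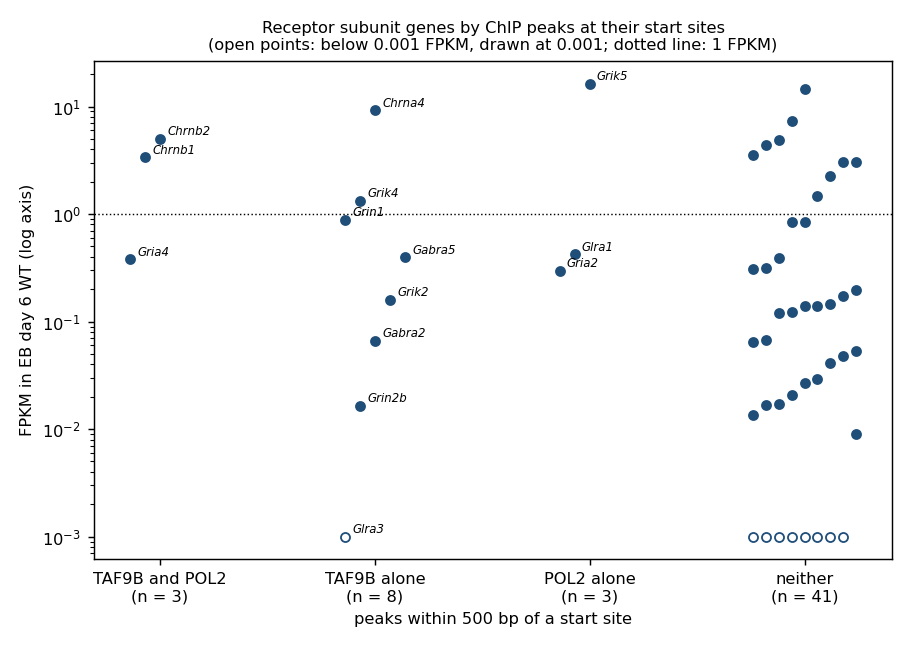
FPKM of 55 of the 59 receptor genes in WT EBs at day 6, on a log axis, by the ChIP peaks within 500 bp of its start sites. Of the 41 genes drawn with neither peak 9 were above 1 FPKM, and of the 11 drawn with TAF9B 4 were. Open points are genes below the lowest value of the axis, drawn at its foot.

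Over the libraries, the number of receptor genes above 1 FPKM was highest in the tissues that hold spinal cord. In WT it was 10 for ES cells, 7 for EBs of day 2, 12 for day 4, 15 for day 6, 44 in spinal cord and 42 in WT spinal column. Under the KO label these numbers were 9 for ES cells, 7, 12 and 7 for the EB days and 31 for spinal column. The summed FPKM of the 59 genes was 25.1 in WT ES cells, 89.6 in WT EBs at day 6 and 604 in spinal cord. Of the 59 genes, 48 passed 1 FPKM somewhere. The genes nearest that line were *Chrm5*, with a highest value of 0.640 FPKM, and *Grin2a*, with 1.55 FPKM. The other genes that never passed it were *Gabra6*, listed at 0 in every library, *Glra4*, *Chrnb3*, *Chrna2*, *Grm6*, *Chrna6*, *Grin2c*, *Chrna10*, *Chrm1* and *Grin3b*.

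**Figure D2:**
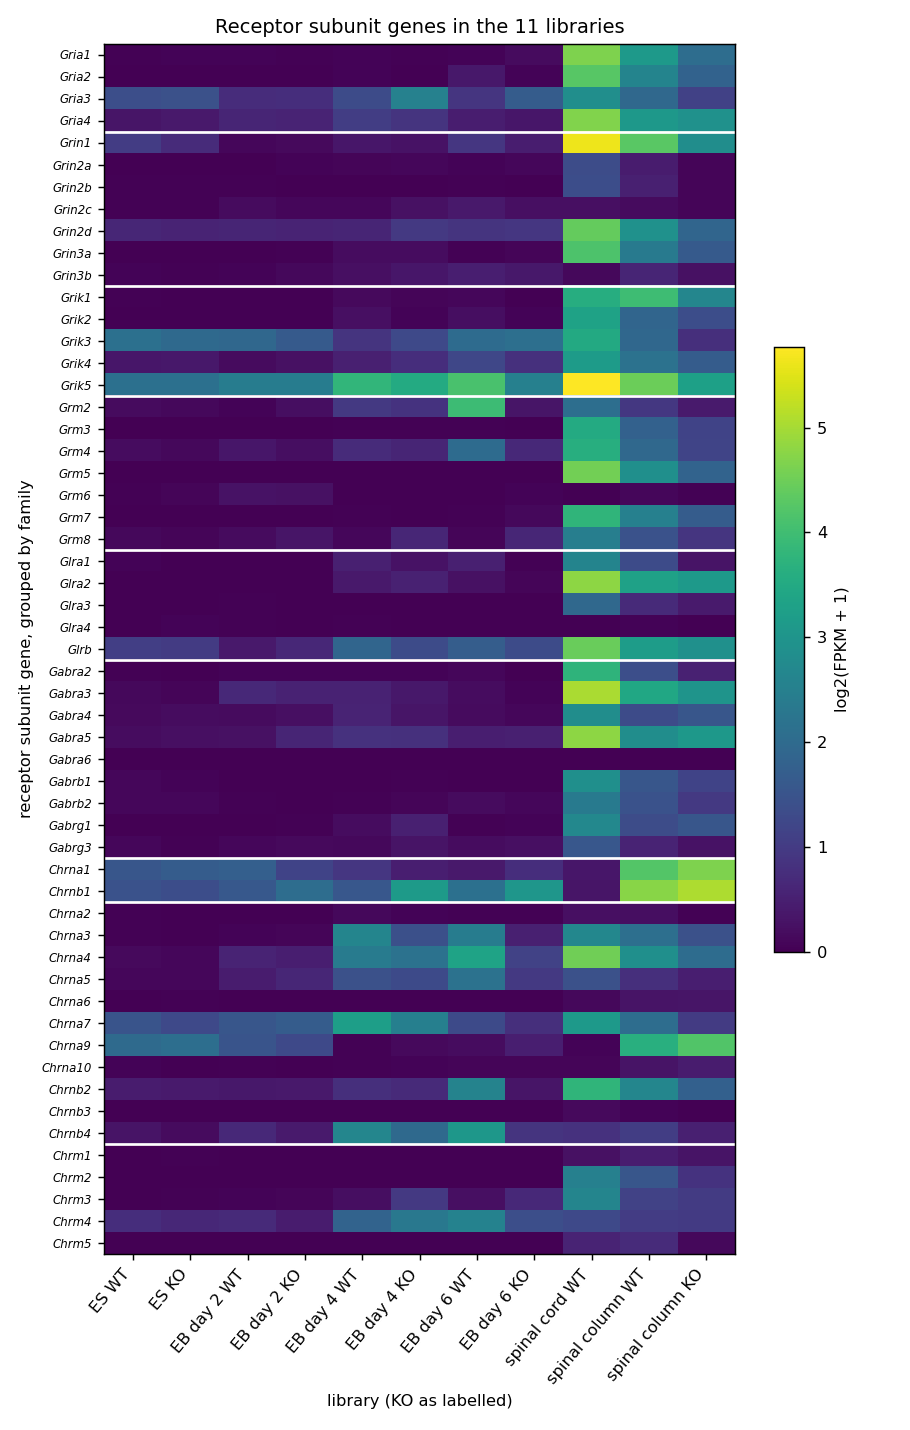
Level of 55 of the 59 receptor genes, as log2(FPKM + 1), in the 11 libraries, with genes in rows grouped by family. Most glutamate, GABA-A and glycine receptor genes were low in ES cells and EBs and highest in spinal cord, while *Chrna1*, *Chrnb1* and *Chrna9* were at 0.267 FPKM or less in cord and at 11.5 FPKM or more in spinal column.

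In the ES libraries few receptor genes were above 1 FPKM. These cultures held feeder fibroblasts, and the collagen gene *Col1a1* was at 157.8 FPKM in the WT ES library and 11.6 FPKM on day 2, so that the part of feeder RNA in the ES values was not separated. The highest gene was *Grik3* at 3.38 FPKM, close to *Grik5* at the same value, and *Chrna9* was at 2.98 FPKM. The nicotinic subunits *Chrna1* and *Chrna7* were at 1.90 and 1.81 FPKM. No receptor gene differed by more than 2-fold between the WT ES library and that labelled KO, of 10 above 1 FPKM, where 0.591% of all loci were lower and 0.541% higher. The 10 log2 ratios ran from -0.69 for *Grin1* to 0.22 for *Chrna1*. On day 2 again none of 7 differed, against 1.37% of loci lower and 1.19% higher.

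In differentiating WT EBs, 5 neuronal nicotinic genes were the largest group among those above their ES level. At day 6 over ES cells, 11 receptor genes of 19 above 1 FPKM were higher and 2 lower, beside 23.2% of loci higher and 15.0% lower. The pairs were normalized in separate tables, and the median log2 ratio of all loci was 0.20. Centred on that median, 10 receptor genes were higher and 3 lower. *Chrna3*, *Chrnb4* and *Chrna5* encode the nicotinic receptor of autonomic ganglia and lie side by side on chromosome 9, with gaps of 3.56 and 1.60 kb. *Chrna3* went through 0.0180, 0.0371, 5.16 and 4.37 FPKM in ES cells and on days 2, 4 and 6. *Chrnb4* went through 0.226, 0.574, 5.25 and 7.35 FPKM, and *Chrna5* through 0.0784, 0.349, 1.71 and 3.55 FPKM. All 3 were thus low until day 2 and above 1 FPKM from day 4.

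*Chrna4* and *Chrnb2* form the main heteromeric nicotinic receptor of the brain. *Chrna4* was at 0.111, 0.491, 4.28 and 9.21 FPKM over the same steps. *Chrnb2* was still at 0.703 FPKM on day 4 and at 4.99 FPKM on day 6, so *Chrna4* passed 1 FPKM at an earlier sampled day. *Chrna7*, which can form a channel alone, peaked on day 4 at 8.35 FPKM and was at 1.47 FPKM on day 6, within 2-fold of ES cells. *Chrm4*, a muscarinic receptor that couples to inhibitory G proteins, was at 0.687 FPKM in ES cells and 4.92 FPKM on day 6.

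Among glutamate receptors, *Grik5*, a kainate subunit that needs a partner of the *Grik1* to *Grik3* group to form a channel, was the highest receptor gene on day 6 at 16.4 FPKM, 4.84-fold over ES cells. *Grm2*, an inhibitory metabotropic receptor, was at 0.955 FPKM on day 4 and 14.6 FPKM on day 6. *Grm4*, of a related inhibitory group, was at 3.02 FPKM on day 6. No NMDA or AMPA subunit passed 1 FPKM at day 6; the highest were *Grin1* at 0.886 and *Gria3* at 0.841 FPKM. *Glrb*, the glycine receptor subunit that binds gephyrin, was at 2.25 FPKM, the highest of its family. Both genes lower at day 6 were nicotinic, *Chrna1* by 6.02-fold and *Chrna9* by 20.4-fold. *Col1a1* was at 17.0 FPKM on day 6, and the part of feeder cells in both values was not tested.

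Few receptor genes differed between WT and KO-labelled EBs on day 4, at shares near those of all loci. On day 6 most of those above 1 FPKM differed. On day 4, of 13 receptor genes 1 was below WT in the library labelled KO by more than 2-fold and 2 were above it, beside 4.41% of loci lower and 12.1% higher. *Chrna3* was lower, 1.64 against 5.16 FPKM. *Gria3* was higher, 4.80 against 1.51 FPKM, as was *Chrnb1*, 7.89 against 1.98 FPKM. *Chrnb4* and *Chrna7* were 1.79- and 1.80-fold lower, short of the criterion. On that day, with WT given first, 7 of 8 neural progenitor markers were lower under the KO label, 370 and 81.4 FPKM summed, and 7 of 8 pluripotency markers were higher, 192 and 893 FPKM. Of 12 skeletal muscle markers 5 were above 1 FPKM in at least 1 library and 3 of these were higher. The 12 summed to 10.7 and 84.2 FPKM, with 3.84 and 69.1 FPKM from *Mylpf*. *Mylpf* was also at 169.5 FPKM in WT ES cells and 59.1 FPKM in WT EBs of day 2. *Myog*, of the same list, was at 0.0101 and 0.0240 FPKM on day 4. Higher too were 3 of 4 cartilage and bone markers, with *Col1a1* at 1.23 and 9.74 FPKM. The part of these cell types in the receptor values was not tested.

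On day 6, 11 of 16 receptor genes were more than 2-fold lower in the library labelled KO and 2 were higher, where 9.92% of all loci were lower and 10.5% higher. The median log2 ratio of the 16 was -1.77, and that of all loci was -0.00358. All 6 neuronal nicotinic subunits above 1 FPKM were among the 11. *Chrnb2* was at 4.99 FPKM in WT and 0.263 FPKM in the library labelled KO, a 19.0-fold difference. *Chrna3* was 10.2-fold lower, at 0.428 FPKM, and *Chrnb4* 9.05-fold lower, at 0.813 FPKM. *Chrna4* was 7.68-fold lower, *Chrna5* 3.80-fold and *Chrna7* 2.09-fold. In the library labelled KO all 6 were at or below the 1.20 FPKM of *Chrna4*.

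The largest ratio was that of *Grm2*, 14.6 FPKM in WT and 0.245 FPKM in the library labelled KO, or 59.8-fold. Its KO-labelled value on day 4 had been 0.795 FPKM. *Grm4* was 5.26-fold lower, *Grik5* 3.48-fold and *Chrm4* 3.07-fold. *Grik3*, *Grik4* and *Glrb* stayed within 2-fold. The 2 genes that were higher were *Gria3*, an AMPA subunit, at 2.23 against 0.841 FPKM, and *Chrnb1*, the β subunit of the muscle receptor, at 7.20 against 3.37 FPKM. With 1 FPKM added to both values neither passed 2-fold, and 9 of the 11 stayed lower. The day 6 WT library serves in this comparison and in that with ES cells. The α partner of *Chrnb1*, *Chrna1*, was below 1 FPKM in both.

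**Figure D3:**
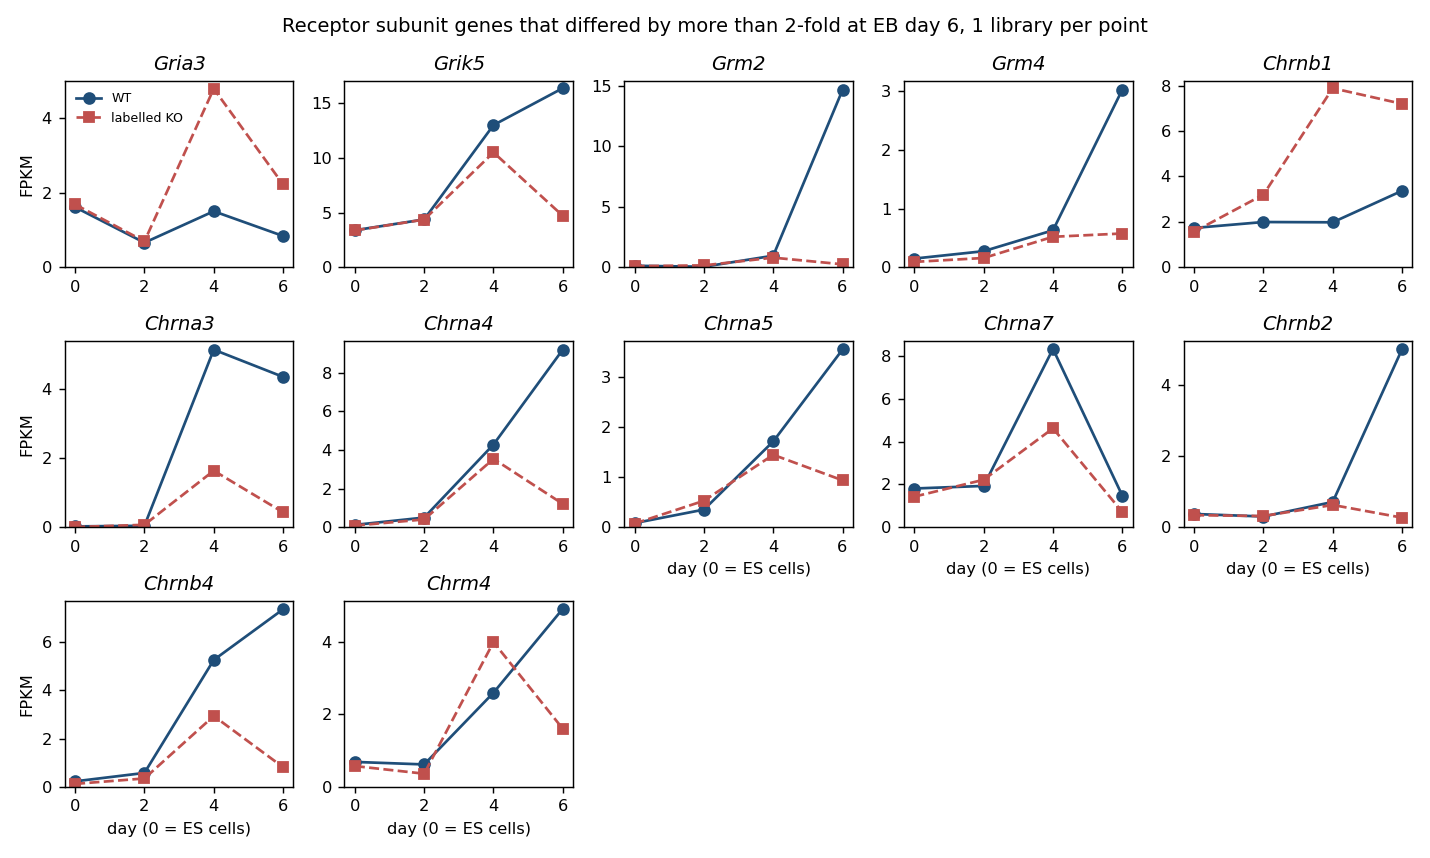
FPKM of 12 of the 13 receptor genes that differed by more than 2-fold on day 6, over days 0 (ES cells), 2, 4 and 6, in WT (solid blue) and KO-labelled (dashed red) libraries, with 1 library per point and separate vertical scales. The courses start close together in ES cells, and by day 6 the dashed line ends below the solid one for 10 of these genes and above it for 2.

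Cell type markers moved with these values. On day 6 all 12 pan-neuronal markers were more than 2-fold lower in the library labelled KO, with a summed level of 1103 FPKM in WT and 141 FPKM in that library, and so were all 7 motor neuron markers, 78.3 and 3.36 FPKM. Of 8 neural progenitor markers 7 were lower, and of 8 pluripotency markers 6 were higher, 1459 and 4176 FPKM summed. Of 5 cartilage and bone markers 3 were higher and 1 lower, 124 and 364 FPKM summed, with *Col1a1* at 17.0 and 47.7 FPKM. Of 5 skeletal muscle markers 1 was higher and none lower, 162.5 and 445 FPKM, of which *Mylpf* alone made up 147 and 424 FPKM. In bulk RNA, fewer cells of a type and less RNA per cell cannot be told apart. The part of cell composition in the receptor values was not tested. Of 14 genes for transmitter uptake and synthesis 8 were above 1 FPKM on day 6 and 4 were lower, none higher. Of 15 genes for glutamate receptor partners 4 were lower and none higher, beside 9.92% of all loci lower and 10.5% higher. Of 11 on the inhibitory list, which holds receptor partners and the chloride transporters *Slc12a2* and *Slc12a5*, 4 were lower, *Slc12a5* included, and none higher. Of 5 for nicotinic receptor partners 2 were lower and 1, *Lynx1*, was higher, at 3.03 against 1.27 FPKM. *Lhfpl4*, which helps GABA-A receptors to reach inhibitory synapses, was among the lower ones, at 0.495 against 6.47 FPKM.

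In newborn spinal cord 44 of the 59 genes (74.6%) were above 1 FPKM, beside 56.6% of all loci. Against WT ES cells in the same table, 42 receptor genes of 46 above 1 FPKM were higher and 3 lower, where 30.5% of all loci were higher and 35.7% lower, with a median log2 ratio of -0.26 over all loci. Centred on it, 43 were higher. The median log2 ratio of the 46 was 6.77. For 6 of the 46 the ES value was listed at 0 and no fold is given. All 4 AMPA, 5 NMDA, 5 kainate, 7 metabotropic glutamate, 4 glycine and 11 GABA-A genes above 1 FPKM were higher. The 3 lower genes were *Chrna1*, *Chrnb1* and *Chrna9*. *Chrnb2* was at 12.8 FPKM in cord, but its row in that table carries a failed status and was left out of the calls.

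The leading subunits differed by family. *Grik5* led all 59 genes at 53.7 FPKM and made up 58.3% of the summed kainate level. *Grin1*, the subunit every NMDA receptor needs, was at 48.5 FPKM. It was joined by *Grin2d* at 20.4 and *Grin3a* at 16.8 FPKM, whereas *Grin2a* and *Grin2b* were at 1.55 and 1.56 FPKM. *Gria4* and *Gria1* were at 24.6 and 24.1 FPKM, close to *Gria2* at 18.4 FPKM, the subunit that limits calcium entry. *Grm5* led the metabotropic receptors at 22.5 FPKM, and *Chrm3* the muscarinic ones at 5.20 FPKM.

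On the inhibitory side, *Glra2*, the α subunit of the immature glycine receptor, made up 77.0% of the summed glycine α level and *Glra1*, that of the mature one, 14.8%. *Gabra3* and *Gabra5* held 39.7% and 33.3% of the GABA-A α level, ahead of *Gabra2* with 15.4%. *Chrna4* was the highest nicotinic gene at 22.0 FPKM.

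Spinal column, which adds muscle, cartilage and ganglia, showed most of this set at a lower level, and the muscle receptor beside it. Of 47 receptor genes above 1 FPKM in at least 1 of both WT tissues, 40 were more than 2-fold lower in column than in cord and 3 higher, beside 16.0% of loci lower and 17.3% higher. The tables were normalized separately and the median log2 ratio of all loci was -0.074. The medians of the families lay between -1.31 and -1.90 on the log2 scale, apart from the nicotinic genes. *Chrna1* was at 0.267 FPKM in cord and 17.6 FPKM in column, and *Chrnb1* at 0.257 and 25.8 FPKM. The other subunits of that pentamer were at 14.1 FPKM for *Chrnd*, 27.6 FPKM for *Chrng* of the fetal form and 0.318 FPKM for *Chrne* of the adult form in column. Of both alternative subunits the fetal one was by far the higher. The 8 skeletal muscle markers with usable values summed to 89.1 FPKM in cord and 12260 FPKM in column.

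*Chrna9*, known from the efferent synapse of hair cells, was also higher in column, at 11.5 FPKM against 0.0412 FPKM in cord. It had been at 2.98 FPKM in ES cells. *Grik1*, *Chrna3*, *Chrnb4* and *Chrm4* stayed within 2-fold between the tissues. *Grik1* was at the higher value in column, 14.8 against 11.1 FPKM, and made up 32.7% of the kainate level there against 12.1% in cord. Markers of sensory ganglia, which lie in the column and not in the cord, summed to 313 FPKM in column and 94.3 FPKM in cord, and their part in the *Grik1* value was not tested.

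In spinal column the receptor genes that differed between KO and WT were all lower in KO. Of 42 receptor genes above 1 FPKM, 23 were more than 2-fold lower in KO and none was higher, where 8.51% of all loci were lower and 9.08% higher. Here 36 of the 42 ratios were below 1, with a median log2 ratio of -1.01 against 0.0594 over all loci. Of the 23, 5 lay within 0.05 log2 units past the 2-fold line, as *Gria2* did at 2.00-fold, and *Chrna3* lay just short of it at 1.93-fold. With 1 FPKM added to both values 10 stayed lower, all of them among the 23. The WT column library serves here and in the comparison with cord.

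The lower genes were mostly those for glutamate receptors. Of 18 glutamate receptor genes above 1 FPKM, 15 were lower, and all 18 ratios were below 1. Their summed FPKM was 119 in WT and 52.0 in KO. *Grin1* was at 18.5 and 6.08 FPKM, 3.04-fold lower, and *Grin2d* and *Grin3a* were lower as well, so that all 3 measurable NMDA genes were. All 6 metabotropic genes above 1 FPKM were lower, among them *Grm5* by 2.46-fold and *Grm3* by 2.01-fold. *Grik5* was at 21.4 and 8.66 FPKM, *Grik1* at 14.8 and 5.32 FPKM and *Grik3* at 2.79 and 0.718 FPKM, while *Grik2* and *Grik4* stayed within 2-fold. Of the AMPA genes, *Gria1*, *Gria2* and *Gria3* were lower and *Gria4* was not, at 7.48 and 6.53 FPKM. *Gria4* thereby made up 32.3% of the AMPA level in WT and 48.7% in KO.

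Of 13 genes for GABA-A and glycine receptors above 1 FPKM, 3 were lower. Their summed FPKM was 71.2 in WT and 50.4 in KO. *Glra1* had the largest ratio of all 42 genes, 1.48 FPKM in WT and 0.229 FPKM in KO, or 6.46-fold. The immature subunit *Glra2* was at 8.87 and 7.60 FPKM and *Glrb* at 8.07 and 6.41 FPKM, 1.17- and 1.26-fold lower. *Gabra2* was 3.55-fold lower, at 1.61 and 0.453 FPKM. *Gabra5* was instead at 6.08 FPKM in WT and 7.47 FPKM in KO. With *Gabra3* at 9.91 and 6.95 FPKM, the highest α value was that of *Gabra3* in WT and of *Gabra5* in KO. Both genes were within 2-fold between WT and KO. Their values in KO lay close together, and 1 library cannot settle their order. *Gabra4* and *Gabrg1*, neighbours of *Gabra2* on chromosome 5, were also at the higher value in KO, by 1.29- and 1.26-fold.

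Of 11 acetylcholine receptor genes above 1 FPKM 5 were lower and none higher. With 1 FPKM added to both values only *Chrna7* of the 5 stayed lower. *Chrna4*, *Chrna7*, *Chrnb2* and *Chrnb4* were lower by 2.01- to 3.13-fold, *Chrna7* most, at 3.15 and 1.01 FPKM. *Chrna1* and *Chrnb1* were at 17.6 and 25.8 FPKM in WT and 24.3 and 32.6 FPKM in KO, and *Chrna9* at 11.5 and 17.6 FPKM, all within 2-fold. The other muscle subunits were likewise within 2-fold or, for *Chrne*, higher, at 1.34 against 0.318 FPKM. Of the muscarinic receptors *Chrm2* was lower, at 0.802 against 1.91 FPKM, and *Chrm3* and *Chrm4* were within 2-fold.

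**Figure D4:**
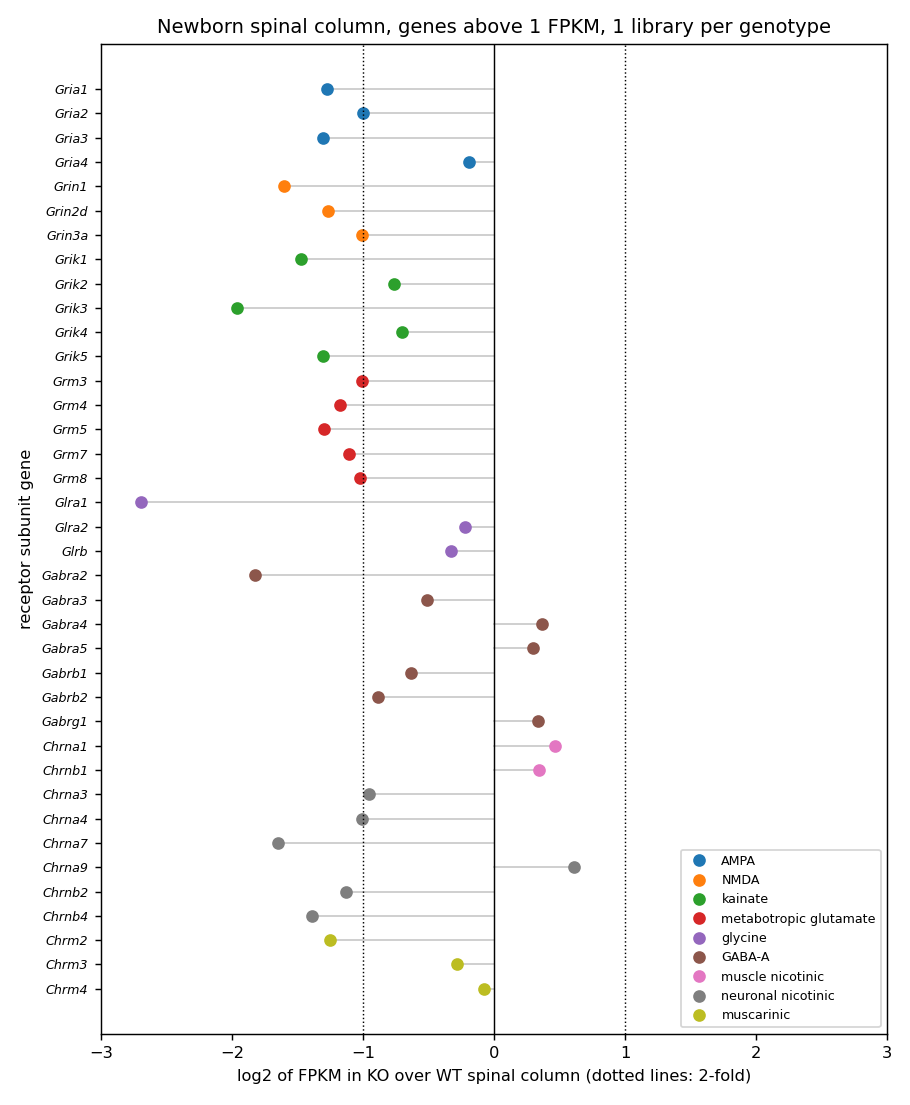
Log2 ratio of FPKM in KO over WT spinal column for 38 of the 42 receptor genes above 1 FPKM, coloured by family, with dotted lines at 2-fold. Of the 17 glutamate receptor genes drawn 14 lie left of the lower line, of the 10 GABA-A and glycine receptor genes drawn 2, and *Chrna1*, *Chrnb1* and *Chrna9* lie right of 0.

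Markers moved here too. Of 11 pan-neuronal markers with usable values 7 were lower in KO, with a median log2 ratio of -1.07 and summed levels of 1232 and 681 FPKM. Of 7 sensory ganglion markers 5 were lower, 313.4 and 162.5 FPKM summed, and of 3 motor neuron markers above 1 FPKM 1 was lower. Of 9 glial markers above 1 FPKM none was lower, with a median of -0.59. Of 8 skeletal muscle markers with usable values 2 were higher and 1 lower, with sums of 12260 and 21550 FPKM. Of 6 blood markers 4 were higher, 599 and 1280 FPKM summed, and 10 cartilage and bone markers all stayed within 2-fold. The part of tissue composition in the receptor values was not tested.

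Genes that work with the receptors were counted by group, beside the same 8.51% of loci lower and 9.08% higher. Of 23 glutamate receptor partners 10 were lower in KO column and none higher, among them *Dlg4*, the postsynaptic scaffold PSD-95, at 20.2 against 43.3 FPKM, and *Shank1* at 3.63 against 12.4 FPKM. Of 12 genes on the inhibitory list 5 were lower, but *Gphn*, the gephyrin scaffold of glycine and GABA-A receptors, was at 11.1 against 15.2 FPKM. None of 5 nicotinic receptor partners was lower. Of 13 transmitter uptake and synthesis genes above 1 FPKM 6 were lower, among them *Slc6a5*, the glycine transporter of glycinergic neurons, at 1.19 against 4.99 FPKM. Of 7 receptor subunits outside the 9 families 4 were lower, including both GABA-B genes, *Gabbr1* at 29.2 against 63.5 FPKM and *Gabbr2* at 4.30 against 15.0 FPKM. Of 9 muscle receptor genes and partners 1 was lower and 1 higher.

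The calls were also set beside the TAF9B peaks, with no test. Over all genes, the lower share with and without a peak was not computed. No relation to the peaks can thus be read from these counts. Of the 16 receptor genes above 1 FPKM on day 6, 2 of 4 with a TAF9B peak at the start were lower, *Chrna4* and *Chrnb2*, and 9 of 12 without one. In spinal column 4 of 10 with a peak were lower, *Grin1*, *Gabra2*, *Chrna4* and *Chrnb2*, and 19 of 32 without one. *Chrnb2*, whose RE1 core lies inside its TAF9B peak, was lower in both, and *Grin1* was lower in spinal column. The EB ChIP and the column RNA come from different cells, so these values stand side by side only.

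Some values carry limits of mapping. Exons of 17 of the 59 genes share bases with another annotated gene, more than 500 in 4 of them, *Grin1*, *Grm6* and *Grin3b* included. Whether reads were assigned by strand is not given in the sources used here, so for *Grin1*, which shares 1307 bases with a gene on the other strand, both cannot be told apart.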

How the data were processed

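RNA-seq libraries were mapped by the authors with TopHat and quantified with Cuffdiff, and ChIP-seq reads were mapped with Bowtie to mm9 and peaks called with MACS; versions are not given in the sources used here. The deposited RNA tables hold FPKM, normalized by the authors within each of 6 tables. Their fold changes and p-values were not used. The deposited peak lists hold a MACS score per peak, 1 library per antibody. The IgG library was not analysed here.

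Symbols were assigned through RefSeq accessions (22793 loci). Of 23152 rows per table, 43 that share accession and locus were left out, which leaves 23109. Loci with a failed or overloaded status were not called. Ratios used FPKM as deposited, with a floor of 1 FPKM in at least 1 library and a 2-fold criterion. Start sites came from GENCODE vM1 on NCBIM37, which is mm9, and peaks were assigned by midpoint. Named genes were those past the criteria of a comparison (of more than 8, the 8 with the highest FPKM), the highest of each family in day 6 EBs, cord and column, those nearest 1 FPKM and those with a peak at a start. Further members are named to complete a family, and were chosen after their values were seen. Members and lists were chosen with earlier results of these data known. Python 3.11.15, pandas 2.3.3, numpy 2.4.6, pysam 0.24.0 and matplotlib 3.10.9 were used. Alternatives were 1 FPKM added to both values, no floor, centring on the median of all loci, loci summed by symbol, the other ES table, a 5 kb window and peaks above the median score. Of the 59 genes, 4 enter the counts, sums and medians but are not reported here individually or drawn.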

Additional observations from a re-analysis of the deposited data

Results flagged for a closer look

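*Gria3*, an AMPA receptor subunit, was, under the labels as given, the only one of the 59 genes called in opposite directions in different KO and WT pairs. Its log2 ratio of the library labelled KO over WT was 1.67 on EB day 4 and 1.41 on day 6 (4.80 against 1.51 and 2.23 against 0.841 FPKM), and -1.31 in spinal column (1.16 against 2.87 FPKM). With 1 library per condition the difference between the pairs was not tested. With 1 FPKM added to both values the calls on day 6 and in spinal column were lost, while the ratios kept their directions. If the libraries of the culture pairs were exchanged, the values of both days would take the sign of the column value, and genes lower in both, such as *Grik5* and *Chrnb2*, would be those of opposite direction.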

How the results depend on the processing

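Of 74 recomputed counts 58 stayed within 1.5 times the reported one. Lower and higher genes were counted separately, so these counts do not check the direction of a gene. Without the floor of 1 FPKM, which admits genes near 0, the counts of lower and higher genes were 11 and 6 in ES cells, 10 and 11 on day 2, 8 and 14 on day 4 and 23 and 11 on day 6 for the library labelled KO over WT, 5 and 29 for day 6 over ES cells, and 8 higher in column over cord. With 1 FPKM added to both values, which shrinks ratios of low genes, 0 genes were higher on day 6 and 10 were lower in KO spinal column. All 10 were among the 23. Within 5 kb of a start site 19 genes held a TAF9B peak, against 27.8% of all genes. With peaks above the median score 4 held TAF9B and 0 held POL2 there, against 13.4% and 19.2% of all genes. Where the 2-fold criterion or floor decides a call, the value alone should be read. The labels give no replicate numbers, and with 1 library per condition no replicate could be left out. A fit over the 5 WT and KO pairs with the stage or tissue as a block was not run.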
